A study of Homo sapiens with 4 samples.

Results

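The 20 Mb of chromosome 7 from chr7:110000001-130000000 (hg38), which hold MET, carried 5593 of the 307691 accessible sites found in SKBR3 cells. The stretch starts in band 7q31 and runs on into the next band. It was chosen because earlier results of these data showed many peaks there, so the levels of its peak density and the make-up of its peaks by strength are descriptions, and only differences between the treatment groups were tested. A site is the union of peaks of the 4 lists that overlapped by at least 1 bp. Counts of peaks are counts of separate 501 bp peaks in a list, and a site lies in the block when its whole span does.

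SKBR3 is a long-used line of HER2-positive breast cancer cells, in which the ERBB2 gene is amplified. All cells were starved for 8 h in reduced-serum medium. Cells were then left untreated or received TWEAK, a cytokine of the tumour necrosis factor family, at 10 ng/ml for 48 h with fresh cytokine after 24 h, and each group had 2 libraries. The question of the design was whether TWEAK changes which DNA is open to the Tn5 transposase in this line. Everything here comes from 1 cell line, and the labels name no batch.

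MET is the receptor tyrosine kinase for hepatocyte growth factor, and its signals drive the growth and movement of epithelial cells. Next to it lie CAV1 and CAV2, which encode the caveolins that coat small pits of the plasma membrane called caveolae. Promoters of genes in use are usually held open, while sites away from promoters, many of them enhancers, open in fewer cell types and can be bound by inducible factors such as AP-1 and NF-kB. TWEAK acts through a receptor that activates NF-kB.

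The sequences below show the letters under the results that follow. The first pair are RefSeq promoters (GRCh38.p14, plus strand), the 250 bases before the start of MET at chr7:116671946-116672195 and of CAV2 at chr7:116499488-116499737. Capitals mark the GC box GGGCGG on either strand.
MET promoter: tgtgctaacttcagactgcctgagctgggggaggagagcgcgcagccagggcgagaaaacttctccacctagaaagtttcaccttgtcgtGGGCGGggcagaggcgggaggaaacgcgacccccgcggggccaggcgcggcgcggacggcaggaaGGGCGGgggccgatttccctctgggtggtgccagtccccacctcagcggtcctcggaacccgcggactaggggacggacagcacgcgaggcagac
CAV2 promoter: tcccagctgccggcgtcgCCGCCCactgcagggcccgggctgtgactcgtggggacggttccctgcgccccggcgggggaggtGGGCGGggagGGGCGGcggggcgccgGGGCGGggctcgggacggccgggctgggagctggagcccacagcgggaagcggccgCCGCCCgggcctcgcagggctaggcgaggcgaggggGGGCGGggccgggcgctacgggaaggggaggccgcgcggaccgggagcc
The MET window held 2 GC boxes and the CAV2 window held 6, and neither held an AP-1 or NF-kB match. The same window of CAV1, at chr7:116524759-116525008, held 3 GC boxes, 1 NF-kB match and no AP-1 match. It is not printed because it overlaps an annotated exon of CAV1. A GC box occurred in 42.6% of 35116 promoters of this length, an AP-1 match in 4.20% and an NF-kB match in 9.96%.

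The next 6 are the central 201 bases of sites whose signal was higher in both TWEAK libraries (hg38, plus strand), picked after their values and letters were seen to show NF-kB matches. They lie in an intron of SLC13A1 at chr7:123190231-123190431, between genes with FAM3C as the nearest start at chr7:121545519-121545719, in an intron of GRM8 at chr7:126941001-126941201 and in an intron of HYAL4 at chr7:123846506-123846706. The last pair are sites with peaks in the TWEAK lists and none in the untreated lists, between genes with TFEC as the nearest start at chr7:115613921-115614121 and in an intron of DOCK4 at chr7:112056465-112056665. Capitals mark AP-1 (TGACTCA or TGAGTCA, 1 motif read on both strands) and the NF-kB consensus on either strand. The central windows of 9.06% of sites outside the block held AP-1 and those of 6.25% held NF-kB.
SLC13A1 intron site: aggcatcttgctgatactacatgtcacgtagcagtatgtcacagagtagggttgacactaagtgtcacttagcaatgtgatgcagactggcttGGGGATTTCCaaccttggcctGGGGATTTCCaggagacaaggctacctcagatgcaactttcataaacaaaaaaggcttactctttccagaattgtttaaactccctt
FAM3C intergenic site: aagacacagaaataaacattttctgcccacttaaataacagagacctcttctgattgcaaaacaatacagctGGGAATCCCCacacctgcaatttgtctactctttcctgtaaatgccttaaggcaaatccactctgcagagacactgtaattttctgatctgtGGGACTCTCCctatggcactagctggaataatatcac
GRM8 intron site: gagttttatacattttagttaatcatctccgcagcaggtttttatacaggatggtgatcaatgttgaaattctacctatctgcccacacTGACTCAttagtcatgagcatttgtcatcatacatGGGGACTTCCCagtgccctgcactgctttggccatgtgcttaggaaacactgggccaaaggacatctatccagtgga
HYAL4 intron site: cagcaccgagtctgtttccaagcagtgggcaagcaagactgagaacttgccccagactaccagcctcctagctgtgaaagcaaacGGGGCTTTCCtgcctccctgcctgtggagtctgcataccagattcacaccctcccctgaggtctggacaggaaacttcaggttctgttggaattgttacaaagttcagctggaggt
TFEC intergenic site: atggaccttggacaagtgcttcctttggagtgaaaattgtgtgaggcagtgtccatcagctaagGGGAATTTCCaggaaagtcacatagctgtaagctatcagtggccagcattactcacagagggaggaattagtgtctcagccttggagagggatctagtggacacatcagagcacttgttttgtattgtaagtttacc
DOCK4 intron site: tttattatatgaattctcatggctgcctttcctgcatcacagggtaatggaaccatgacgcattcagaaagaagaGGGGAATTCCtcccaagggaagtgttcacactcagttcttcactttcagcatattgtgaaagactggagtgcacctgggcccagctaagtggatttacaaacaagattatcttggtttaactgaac
Each holds an NF-kB match because it was picked for one, and the GRM8 site also held AP-1. Other top-ranked sites of the same kinds held none, namely a gained site in an intron of CADPS2, a rising site near WASL with AP-1 alone and a rising site in an intron of CFTR. The SLC13A1 site held 2 copies of the same NF-kB letters. A match is a run of letters and does not show that a factor was bound.

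Where 4 values are given, they follow the order untreated replicates 1 and 2, then TWEAK replicates 1 and 2. On the chromosomes used, peaks numbered 208329, 228644, 218335 and 195315. The background pileup, recovered from the peak values, was 3.59, 2.24, 2.63 and 1.85 reads, so untreated replicate 1 had the highest background and TWEAK replicate 2 the lowest. Of 10 luminal epithelial markers, 9 had a promoter peak in all 4 lists, each above the 75th percentile of the lists, among them the epithelial transcription factor ELF3. The remaining one, the adhesion gene CDH1, had no promoter peak in any list. None of the 4 leukocyte markers had a promoter peak. Basal markers had a peak in all 4 lists at 2 of 3 genes and none above the 75th percentile. Of 4 fibroblast markers, the collagen gene COL1A2 had a peak in all 4 lists, at a mean percentile of 85.8, and of 3 endothelial markers the receptor gene KDR did, at 48.9.

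Peaks of the block made up 1.69% (95% Wilson interval 1.64 to 1.75, counting error only), 1.68% (1.63 to 1.73), 1.53% (1.48 to 1.58) and 1.40% (1.35 to 1.45) of the lists. Both TWEAK values lay below both untreated values in the full lists. The group means were 1.68% ± 0.00975 (SD, n = 2) untreated and 1.46% ± 0.0928 (SD, n = 2) with TWEAK, a difference of -0.222 percentage points. The exact permutation test gave p = 0.333 (two-sided), the smallest that 2 against 2 libraries can give, so no comparison of this kind could pass 0.05. With peaks of at least 5 times the background alone (a limit set once the data were known), the difference was 0.00326 percentage points. With lists of equal size it was -0.0707 (exact permutation p = 0.667, two-sided), and with a deposited value of at least 5 it was -0.0956. The number of peaks in the block was 3523, 3835, 3336 and 2728.

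Density was high in every list but uneven along the block. The median 200 kb bin held 25, 31, 25.5 and 20 peaks. The 14481 bins elsewhere had medians of 8, 9, 9 and 8. The ratio of the medians was 3.13, 3.44, 2.83 and 2.50. Against other bins of chromosome 7, with medians of 13, 15, 15 and 13, it was 1.92, 2.07, 1.70 and 1.54. Those bins were thus denser than elsewhere at the median. They were uneven, with a 20 Mb window of the chromosome at 11.6 peaks per bin. Among 254 overlapping windows of 20 Mb, the block ranked 9 by peaks per bin. Of its 100 bins, 36 lay above the 90th percentile of all bins (34.25 peaks) and 26 held fewer than 10 peaks. Over the 100 bins the 6 pairs of lists had Pearson correlations of 0.971 to 0.985, so the profile was shared by treated and untreated cells. The bins of all lists follow the same DNA and base composition.

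**Figure D1:**
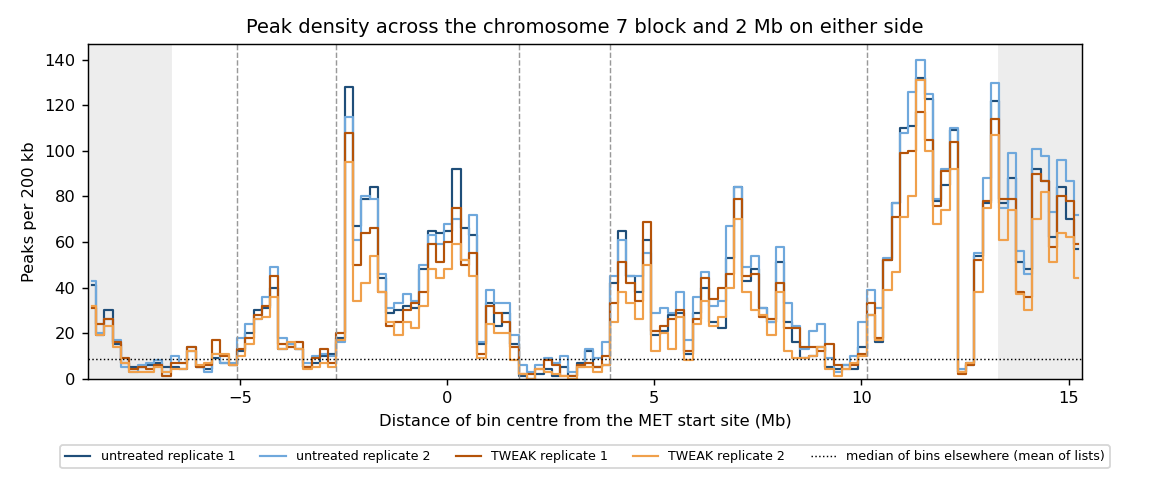
Peaks per 200 kb bin (vertical axis) against the distance of the bin from the MET start site in Mb (horizontal axis), 1 line per library, with the block on white and its flanks on grey. Dashed vertical lines mark the 5 largest steps in density and the dotted line the median bin elsewhere (8.5 peaks, mean of the lists). The 4 lines rise and fall together between bins of 1.25 and 130 peaks.

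The 5 largest steps cut the block into 6 segments. A step compares the mean of 5 bins before a point with the 5 bins after it. Its size is the log2 ratio of these means, with 1 peak added to each. Over the mean of the lists, the sharpest by this measure lay 2.67 Mb before the MET start, at 2.69. Peaks per bin rose there from 9.05 to 63.85, with log2 ratios of 2.90, 2.67, 2.51 and 2.66 in the 4 lists. The rise at 3.93 Mb after MET was close, at 2.67, and comes first without the added peak. Peaks per bin fell from 22.35 to 3.6 at 1.73 Mb after MET, rose from 6.25 to 45.15 at 3.93 Mb, and rose from 7.7 to 53.3 at 10.1 Mb. A smaller step stood 5.07 Mb before MET, from 7.45 to 26.8. Each step had the same direction in all 4 lists, but their order differed. In untreated replicate 1 the fall after MET was sharper (log2 ratio -3.21), and in TWEAK replicates 1 and 2 the rise at 3.93 Mb was (2.78 and 2.88). The rise at 10.1 Mb was also sharper in each of these lists (2.92, 2.56 and 2.74).

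The lower bound of the block at 110 Mb was quiet, with 4.6 peaks per bin before it and 7.05 after it. The upper bound at 130 Mb cut through dense bins, with 51.4 peaks per bin before it and 66.35 after it. The bins touching that bound held 118.25 inside and 73 outside, so the upper bound was not an edge of density.

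The segment with MET, chr7:114000001-118400000, held 1668 sites, 16 protein-coding gene starts and 45.0 peaks per bin. Its genes included the transcription factor FOXP2, the focal adhesion gene TES, CAV1, CAV2, MET, the actin capping gene CAPZA2, the ligand gene WNT2 and the chloride channel gene CFTR. The next segment, chr7:118400001-120600000, held 125 sites, 4.86 peaks per bin and a single gene start, that of the potassium channel gene KCND2. The longest gap without a site in the block, 113223 bp, lay in this valley. The segment chr7:120600001-126800000 had 29.2 peaks per bin and 24 gene starts. The last segment, chr7:126800001-130000000, was the densest with 71.0 peaks per bin and 32 gene starts.

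The densest bin, chr7:128000001-128200000, held 130 peaks on average and the start of LRRC4, a gene of synapse adhesion. Dense bins were not always rich in genes. The bin chr7:114200001-114400000 held 128, 115, 108 and 95 peaks in the 4 lists and no canonical gene start. It lies within the annotated span of FOXP2. On average 52 of its peaks were weak and 2.75 were strong. Here a weak peak ranks in the lowest 25% of its list by the deposited value and a strong peak in the highest 25%. Of 24 bins with more than 50 peaks, 5 held no gene start. The 51 bins without a gene start had a median of 13.25 peaks and the others 42.5.

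Weak peaks made up much of the density. Of the block's peaks, 48.6%, 46.8%, 44.5% and 47.3% were weak, against 25.1%, 25.8%, 23.3% and 25% of peaks elsewhere. Strong peaks took 12.1%, 12.2%, 14% and 15.7%, against 25.1%, 25.1%, 25% and 24.9%. Per Mb, weak peaks were 5.01, 4.66, 4.47 and 4.04 times as dense as elsewhere, and strong peaks 1.25, 1.25, 1.31 and 1.34 times. Among the 254 windows the block ranked 1 by the share of weak peaks, at 46.8% as the mean of the lists, and the window starting 10 Mb later, which overlaps it, had 44%. Of the other windows of chromosome 7, the one that overlaps the block at its start had 38.3% and the lowest 30.7%. The next in rank were 3 dense windows of chromosome 8 with 42.2%, 40.8% and 39.7%, so high shares of weak peaks were not particular to the block. The median peak of the block stood at 4.46, 4.92, 5.32 and 6.50 times the background of its list, and the median peak elsewhere at 7.53, 8.05, 8.74 and 10.8 times.

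The background used for each deposited value was the same over a whole list. DNA copy number was not measured in these lists, and more DNA copies and more open DNA per copy cannot be told apart in a density of peaks.

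**Figure D2:**
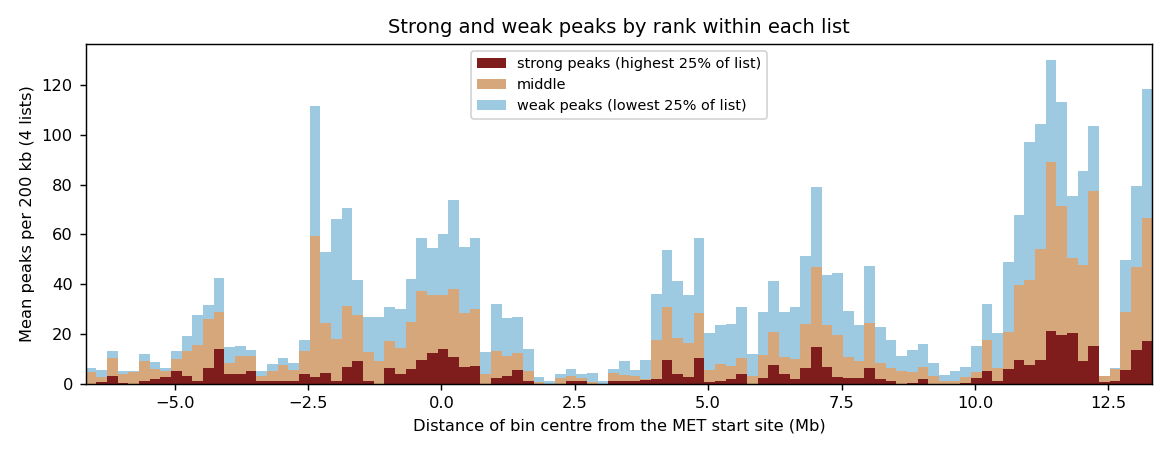
Mean number of peaks per 200 kb bin over the 4 lists (vertical axis) against the distance from the MET start site in Mb (horizontal axis), stacked by rank within the list as strong (highest 25%), middle and weak (lowest 25%). Weak peaks fill much of the tall bins, and strong peaks stay few along most of the block, with 10.1 per bin in the last segment.

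The mix of weak and strong peaks differed between segments. In the segment with MET, 53.1%, 47.2%, 45.6% and 51.3% of peaks were weak, and in the following dense segment 58.3%, 57.6%, 53.2% and 52.3%. In the last segment the shares were 41.0%, 38.8%, 40.3% and 45.6%. The first segment, outside the dense stretches, had 19.2%, 26.6%, 26.4% and 29.5%. The KCND2 valley, sparse as well, had 54.5%, 75.9%, 48.1% and 32.3%, of 44, 87, 52 and 31 peaks, so a low density did not go with a low share of weak peaks in both. At the step 2.67 Mb before MET, weak peaks rose from 2.6 to 34.65 per bin while strong peaks went from 1.9 to 3.85. Across the 100 bins the numbers of weak and strong peaks had a Pearson correlation of 0.645, and across the bins elsewhere 0.601. Both counts in a bin come from the same libraries.

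By group, the share of weak peaks was 47.7% ± 1.27 (SD, n = 2) untreated and 45.9% ± 1.94 (SD, n = 2) with TWEAK, with p = 0.667 (exact permutation test, two-sided). The groups overlapped, and the difference of -1.81 percentage points changed sign to 4.64 when every list was cut to the same number of top peaks. The number of strong peaks was 427 and 469 untreated and 466 and 427 with TWEAK. The number of weak peaks was 1713 and 1796 untreated and 1486 and 1290 with TWEAK. The TWEAK lists differed from the untreated lists by -647 peaks in the block on average, of which -366.5 were weak and -1.5 strong, and the rest were of middle rank. The exact permutation tests gave p = 0.333 for all peaks, p = 0.333 for weak peaks and p = 1 for strong peaks (two-sided).

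A larger share of promoters had a peak than over all genes, which was not tested because the block was chosen for its peaks. Of 86 protein-coding genes, 76 had a peak within 1 kb of the canonical start in all 4 lists (88.4%), against 70.5% of all 19970 genes. Counting any annotated start, 78 genes did (90.7%), against 76.6%. Among the 76, the median percentile was 95.6, against 90.9 for all genes with such a peak, and 12 of them (15.8%) lay under the 50th percentile, against 7.16%. Above the 75th percentile lay 53 of them (69.7%), against 79.6%.

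The MET promoter was among the strong ones. Its peak, in the site chr7:116672001-116672513, had percentiles of 98.9, 98.6, 99 and 98.2 in the 4 lists. On the scale of pileup over list background it measured 110, 116, 124 and 115. The 2 groups overlapped in percentile, and the ratio of TWEAK to untreated pileup over background was 1.06, where the median over the promoters of the block was 1.08. AP-1 letters lay inside this site, after the gene start, and not in the 250 bases before it. Within the gene body there were 43, 45, 42 and 31 peaks, 3.19 per 10 kb on average over the lists. Of 63 sites in the body, 24 were shared by all lists, where 42.8% of all sites were. In the body 2 sites were lost, where 3.79% of all sites were, and 0 were gained, where 3.6% of all sites were.

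A site in the first part of the MET gene, chr7:116674776-116675298, lay in an intron 2841 bp after the start. Its percentiles were 75.9, 75.3, 82.7 and 80.3, and its pileup over background was 18.4, 19.2, 29.6 and 31.4. Both TWEAK libraries were higher than both untreated libraries, by less than the 10 percentile points used as a margin. This site was picked after its values were seen.

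CAV1 and CAV2 were open in all libraries. The peak at the canonical start of CAV1 had percentiles of 87.9, 90.1, 89.9 and 86.7. A stronger peak lay 1262 bp further in, in the site chr7:116526045-116526550, near another annotated start of the gene, with percentiles of 99.1, 99.5, 99.5 and 99.4 and pileups over background of 118, 159, 151 and 160. The CAV2 promoter had percentiles of 81.1, 88.4, 86.5 and 83.0. None of these values separated the groups. The site chr7:116522187-116522727, between CAV2 and CAV1 at an offset of -2579 bp from the CAV1 start, had percentiles of 6.15, 33.5, 53.2 and 59.8, higher in both TWEAK libraries. Its pileups over background were 3.07, 5.37, 9.49 and 14.6. The value of untreated replicate 1 was close to the lowest in that list, 2.79. This site too was picked after its values were seen.

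**Figure D3:**
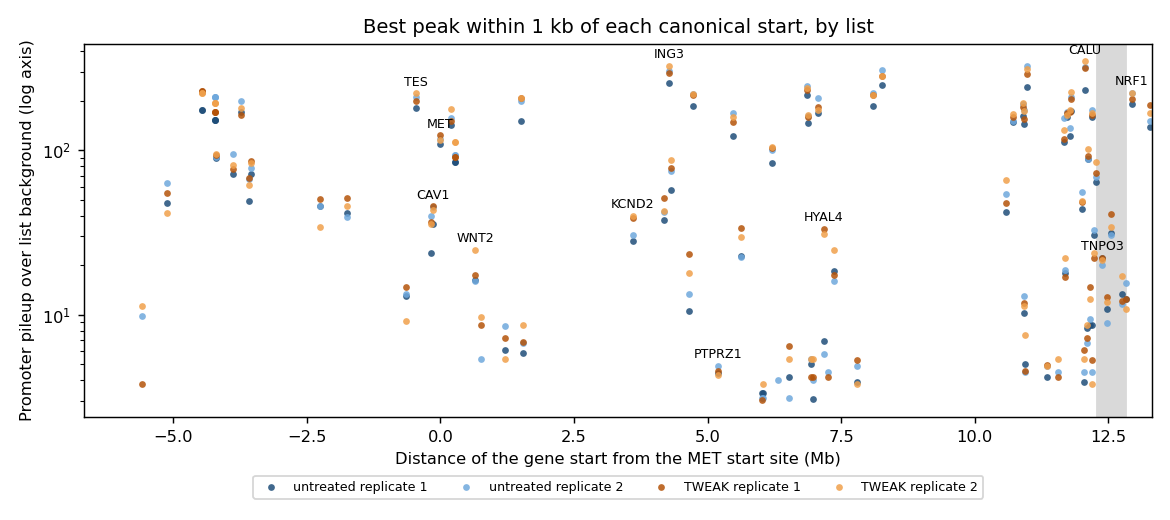
Pileup of the best peak within 1 kb of each canonical start, divided by the background of its list (vertical log axis), against the distance of the start from that of MET in Mb (horizontal axis), 1 point per gene and library. MET lies at 110 to 124 and TNPO3, in the grey stretch with few peaks, at 20.1 to 22.3.

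The genes fell into levels by role, using lists drawn up with earlier results of these data known. All 23 broadly used genes had a promoter peak in all 4 lists, and 21 of them had a mean percentile above 95. Among the highest were ING3 of the NuA4 acetyltransferase complex with pileups over background of 255, 302, 293 and 327, SND1, which encodes a nuclease-domain protein, with 241, 324, 289 and 310, and CALU, which encodes a calcium-binding protein of the secretory pathway, with 233, 322, 316 and 349. All 8 genes of the actin and adhesion list were open, from a mean percentile of 99.8 down to 39.0. The lowest was CTTNBP2, which encodes a cortactin-binding protein. That list also held DOCK4, MDFIC, TES, CAPZA2, WASL, FSCN3 and FLNC. TES had pileups over background of 180, 209, 199 and 223.

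Developmental and most tissue-restricted genes were lower. Of 7 genes of Wnt, hedgehog and developmental control, 6 had a promoter peak in all lists and none had a mean percentile above 95. FOXP2 had percentiles of 91.6, 90.2, 91.3 and 82.0, and WNT2 had 73.0, 71.4, 71.1 and 74.9. Of 13 tissue-restricted genes, 6 had a peak in all 4 lists, with a median percentile of 35.3, and 2 had none, among them CFTR at its canonical start. IQUB, a cilium gene of the same list, was an exception with percentiles of 99.87, 99.87, 99.86 and 99.83. CFTR did have a peak at another annotated start in all 4 lists. Of 7 neural genes, 6 were open in all lists. KCND2, the only gene start in the valley after MET, had percentiles of 84.2, 84.1, 87.5 and 85.2. Its body, which runs past the valley into the dense segment after it, held 0.697 peaks per 10 kb. Of the 2 interferon and inflammation genes, the transcription factor IRF5 had a mean percentile of 95.5 and TFEC one of 61.1.

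Ranks near the top of a list leave little room to rise, so percentiles could show few changes at the strong promoters. Of the 76, 7 had both TWEAK percentiles above both untreated ones, where 7.53% of all such promoters did, and 16 had the reverse, where 36.4% did. With a margin of 10 points, 1 was higher with TWEAK (1.39% of all) and 4 were lower (3.64% of all). The 1 was HYAL4, of the hyaluronidase family, with 47.4, 37.4, 84.9 and 79.9, but its best peaks came from different sites in the 2 groups. On the scale of pileup over background, the ratio of TWEAK to untreated means over the 76 ran from 0.694 to 5.03 with a median of 1.08. At WNT16, a Wnt ligand gene, the best peaks within 1 kb also came from different sites. Its shared promoter site, chr7:121328667-121329179, had percentiles of 61.8, 59.3, 78.1 and 66 and pileups over background of 10.6, 10.3, 23.5 and 17.9, a ratio of 1.98 with the TWEAK values higher. HILPDA, which encodes a protein of lipid droplets, had pileups over background of 123, 136, 170 and 176, at percentiles above 99 in all 4 lists. KCP, a secreted factor that was in no role list and was chosen after its values were seen, had 85.7, 85.3, 76.6 and 73.8.

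A narrow stretch inside the densest segment was nearly empty. Over 540 kb, chr7:128960001-129500000, bins of 20 kb around the start of SMO stayed under a mean of 2 peaks, a limit chosen after the data were seen. The stretch held 14, 13, 11 and 14 peaks. The 160 kb before it held 108, 110, 103 and 91 and the 160 kb after it 70, 78, 75 and 58. The stretch was thus low in all 4 lists, treated and untreated.

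The stretch carried 5 gene starts and was unlike the gene-poor valleys. SMO, which encodes the transducer of hedgehog signals, had no peak at its start and none in its body in any list. The promoters of TNPO3, a nuclear import receptor, and AHCYL2 were open in all lists but were the weakest of the broadly used genes. TNPO3 had pileups over background of 22.3, 20.1, 22 and 21.7 and AHCYL2 had 31.2, 30.4, 41.0 and 34.1. The other 21 broadly used genes had medians of 159, 191, 183 and 193, and the lowest of them 57.4, 74.7, 77.5 and 87.2. The 18 sites of the stretch, 9 of them shared by all lists, reached a mean percentile of at most 85.1. On either side, the promoter of CALU and that of NRF1, a regulator of mitochondrial genes with 192, 222, 204 and 224, were strong.

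**Figure D4:**
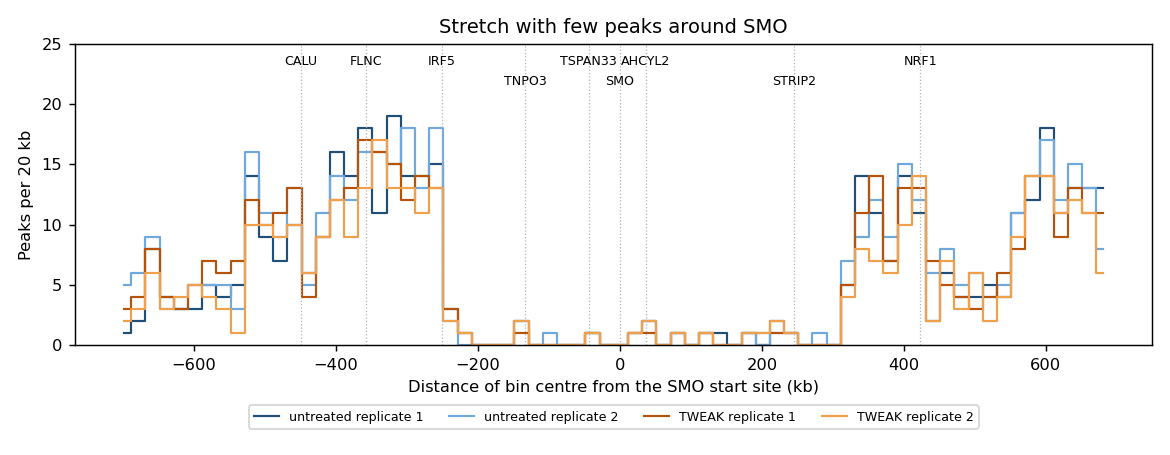
Peaks per 20 kb bin (vertical axis) against the distance from the SMO start site in kb (horizontal axis), 1 line per library, with dotted lines at named gene starts. All 4 lines drop to between 0 and 2 peaks per bin for most of 540 kb and return to high counts on both sides.

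Sites of the block recurred in fewer lists than sites in general. Of the 5593 sites, 1596 had a peak in all 4 lists (28.5%), against 42.8% of all sites, and 2237 had a peak in 1 list (40%), against 29.2%. Sites found in 1 list numbered 572, 842, 534 and 289, with most in the longest list and fewest in the shortest. Shared sites were in promoters in 11.3% of cases and all sites of the block in 7.33%, with 44.1% of all sites in introns and 46.1% between genes.

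Sites gained with TWEAK, present in both TWEAK lists and in neither untreated list, numbered 106, or 1.90% of the block's sites, where 3.6% of all sites were gained. Sites lost, with the opposite pattern, numbered 322, or 5.76%, where 3.79% of all sites were lost. Both counts moved when a library was left out. Gained sites came to 661 without TWEAK replicate 2, 12.2% of the block's sites against 11.6% of all, so the share was no longer below that of all sites, and to 239, 249 and 418 without untreated replicate 1, untreated replicate 2 or TWEAK replicate 1. Lost sites came to 1201 without untreated replicate 1, 23.3% against 15.9%, and to 936, 670 and 485 without untreated replicate 2, TWEAK replicate 1 or TWEAK replicate 2. Of the lost sites, 209 were weak in both untreated lists (64.9%, against 42.1% of all lost sites), and of the gained sites 52 were weak in both TWEAK lists (49.1%, against 23.7%). Above the 50th percentile in both lists were 6 lost sites (1.86%, against 5.53%) and 9 gained sites (8.49%, against 16.4%). With peaks of at least 5 times the background, 61 sites were lost (2.45%, against 2.33% of all sites) and 120 were gained (4.81%, against 5.90%). Of the 106 gained sites 47 lay within 500 bp of an untreated peak (44.3%, against 27.5% of all gained sites), and of the 322 lost sites 113 lay within 500 bp of a TWEAK peak (35.1%, against 34.1%). Peaks of the block stood closer together, with median gaps of 1472.5, 1552.5, 1739 and 2037 bp against 2836, 2683.5, 3056 and 3486 bp elsewhere, and the part of this spacing was not tested.

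The best-ranked gained sites stood well below the strongest promoters. The first, in the promoter of the ubiquitin-conjugating enzyme gene UBE2H at chr7:129952161-129952664, had percentiles of 82.5 and 78.7 in the TWEAK lists, with an untreated peak 69 bp away. The second, between genes at chr7:115613771-115614271 and 336623 bp from the nearest start, that of TFEC, had 77.3 and 79.5, pileups over background of 22.8 and 30.3, and its nearest untreated peak 5440 bp away. The third, in an intron of DOCK4 at chr7:112056309-112056815, had 75.8 and 76.5, with the nearest untreated peak 2816 bp away. The NF-kB letters of the TFEC and DOCK4 sites are shown above. The fifth, between genes at chr7:129772766-129773291, had 65.4 and 66.8 and lay between the hairpins of the microRNA genes MIR182 and MIR96. The best peak within 1 kb of MIR96 had percentiles of 53, 64, 77 and 74.4, higher with TWEAK, and that of MIR182 had 74.2, 72.6, 66.2 and 68.4, lower with TWEAK. The best-ranked lost site, in an intron of UBE2H at chr7:129854393-129854929, had untreated percentiles of 88.5 and 84.6 and a TWEAK peak 218 bp away. The lost site in an intron of CAV2 at chr7:116362132-116362642 had 57.5 and 69.3 and no TWEAK peak within 3463 bp.

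Among the 1596 shared sites, 106 rose in rank with TWEAK (6.64%), counting those where both TWEAK percentiles exceeded both untreated ones by at least 10 points on average, and 7% of all shared sites did so. The reverse held for 326 (20.4%), where 16% of all shared sites did so. The balance turned under 1 alternative. With peaks of at least 5 times the background, 172 rose (16.2%, against 14.5% of all shared sites) and 106 fell (9.97%, against 8.22%), so more rose than fell. With a margin of 20 points 48 rose (3.01%, against 2.81% of all shared sites) and 105 fell (6.58%, against 4.84%). The 5 strongest shared sites, at SND1, UBE2H, CALU, ING3 and near HILPDA, were chosen for high ranks in all lists, so rank could hardly show a change there. The site near HILPDA had percentiles of 99.94, 99.94, 99.91 and 99.89 and pileups over background of 301, 338, 285 and 295.

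Pileup over background gave a different balance from rank. At 23 shared sites of the block the mean of the TWEAK values was at least 3 times the untreated mean and the groups did not overlap (1.44%, against 1.16% of all shared sites). At 1 site the TWEAK mean was at least 3 times lower, again with no overlap, where 0.00759% of all shared sites were. This 3-fold limit was chosen after the data were seen. The median ratio over shared sites was 1.10 in the block and 1.10 over all. This median gives the shift between whole lists and not the spread between replicates at a site, which was not tested. None of the 23 was in a promoter, 12 were in introns, 1 in an exon and 10 between genes.

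The SLC13A1 intron site had pileups of 23 and 14 reads in the untreated libraries and 255 and 192 with TWEAK. Over background these were 6.41, 6.26, 96.8 and 104, a ratio of 15.8, and its percentiles went from 44 and 40.8 to 97.9 and 97.6. SLC13A1 encodes a sulphate transporter, and the site lay 8933 bp from its start. Both TWEAK values were far above both untreated values on either scale.

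The site nearest FAM3C, which encodes a secreted factor, lay 149005 bp from that gene's start. Its pileups over background were 8.08, 6.71, 76.7 and 77.4, a ratio of 10.4. The GRM8 intron site had 3.35, 4.92, 29.6 and 34.1, and a site reaching into an exon of RBM28, which encodes a ribosome biogenesis factor, had 3.07, 4.03, 28.1 and 27.6. In these untreated lists the GRM8 site rested on 12 and 11 reads and the RBM28 site on 11 and 9, close to the lowest pileups listed, 10 and 7.

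The HYAL4 intron site was the strongest of the 23 in the TWEAK lists. Its pileups over background were 28.4, 45.2, 218 and 237, a ratio of 6.18, and its percentiles were 84.4, 90.1, 99.8 and 99.8. It lay 1445 bp after the canonical start of HYAL4, beyond the 1 kb used for promoters. The FAM3C and HYAL4 sites were named after their values were seen.

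**Figure D5:**
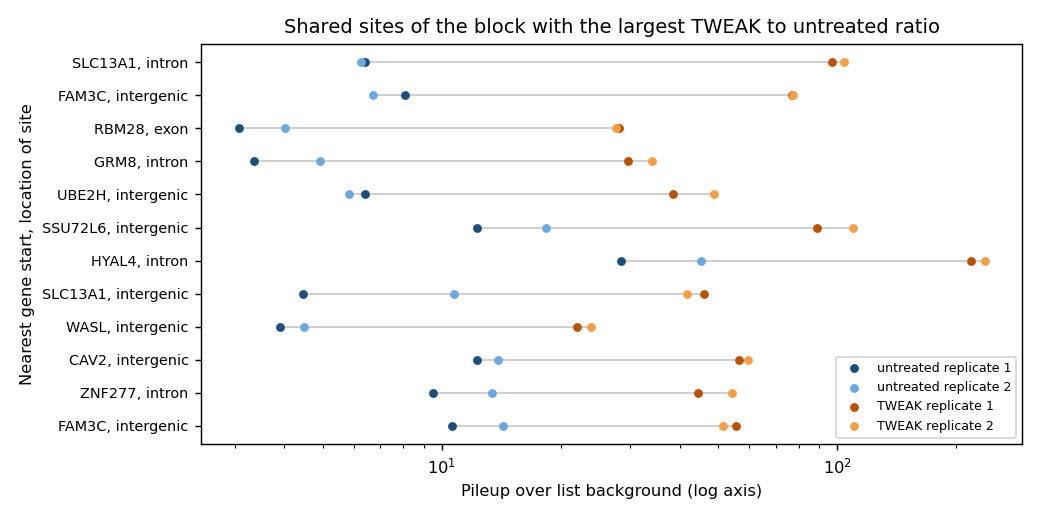
Pileup over list background (horizontal log axis) at the 12 shared sites of the block with the largest ratio of TWEAK to untreated values, 1 point per library, named by nearest gene start and location (vertical axis). The untreated and TWEAK points are apart at every site shown, because the sites were chosen by that ratio, and the SLC13A1 site spans the widest range, 6.26 to 104.

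Of the 23 sites, 12 held the NF-kB consensus (52.2%) and 6 held AP-1 (26.1%), and 42.6% and 21.3% of the 1527 such sites over all chromosomes did. Among rising sites, 15.1% held NF-kB (16 of 106) and 20.8% AP-1 (22 of 106), against 18.2% and 23.3% of rising sites elsewhere. Among falling sites, 2.45% held NF-kB (8 of 326) and 4.91% AP-1, against 3.19% and 5.08% elsewhere. Gained sites held NF-kB in 17.9% (19 of 106, 95% Wilson interval 11.8 to 26.3) and AP-1 in 6.60% (7 of 106, 3.24 to 13), while gained sites elsewhere held them in 20.1% and 16.7%. Lost sites held NF-kB in 3.11% (10 of 322) and AP-1 in 5.28%, against 4.31% and 4.89% elsewhere. Sites are not replicates, and these shares were not tested.

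Over all sites of the block the motif shares were below those elsewhere, at 3.84% against 6.25% for NF-kB, 6.42% against 9.06% for AP-1 and 1.43% against 3.48% for the CTCF core CCNNNAGGNGGC. Base composition moved with them, since the median GC content of the central windows was 43.8% in the block and 49.3% elsewhere, and its part in the shares was not tested. Among shared sites with a mean percentile over 75, NF-kB was at 5.10% against 6.74%, AP-1 at 13.3% against 11.2% and the CTCF core at 6.55% against 6.74%. Sites found in 1 list had 2.91% against 5.60%, 4.43% against 6.69% and 0.447% against 1.70%. These shares were not tested.

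The falling sites named by rank held neither motif. The first, in an intron of TSPAN12, a membrane protein of Norrin and Wnt signalling, at chr7:120836636-120837217, had percentiles of 64.0, 66.0, 29.2 and 7.37. The third, in an intron of WNT2 at chr7:117284756-117285628, had 53, 48.9, 16.4 and 2.52. At both sites the TWEAK values lay below the untreated values, and TWEAK replicate 2 was lowest. The 1 site with a TWEAK mean at least 3 times lower, chr7:127286212-127286770 between genes, had pileups over background of 30.1, 45.2, 14.8 and 8.66, with TWEAK replicate 2 lowest.

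By segment, the one with MET held 19 gained sites (1.14% of its 1668) and 106 lost sites (6.35%). The dense segment after the KCND2 valley held 40 (2.31% of 1733) and 99 (5.71%), the last segment 27 (1.66% of 1630) and 94 (5.77%), and the valley 1 and 5 among its 125 sites. The first segment went the other way, with 6 gained (6.06% of 99) and 2 lost (2.02%), and the second held 13 (3.85% of 338) and 16 (4.73%). Over all sites, 3.6% were gained and 3.79% lost. Of shared sites, 6 rose and 5 fell among 35 in the first segment, and 7 and 27 among 124 in the second. The segment with MET had 20 and 91 among 465, and the valley 1 and 0 among 16. The segment after the valley had 37 and 58 among 361, and the last segment 35 and 145 among 595. Of all shared sites, 7% rose and 16% fell. These differences between segments were not tested.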

How the data were processed

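Accessible chromatin was profiled by ATAC-seq in 4 SKBR3 libraries, 2 untreated and 2 with TWEAK, grouped and numbered by their titles. According to the methods, the authors trimmed adaptors (Trimmomatic), mapped reads to hg38 (Bowtie2), removed duplicates (Picard) and called peaks with MACS2 in each library. Versions, settings and any read shift for the transposase are not given in the sources used here. Each 501 bp peak carries an unnamed value, deposited by the authors, that was read as the uncorrected -log10 of the p-value from their peak caller, since the values of each list equalled Poisson tails of whole pileups against 1 background per list, and the pileups over background come from that reading. The value depends on depth, so strength was compared by rank within a list. Fold over background depends on this recovered background.

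Peaks on chromosomes 1 to 22 and X were merged where they overlapped by 1 bp. Bins of 200 kb with over 50% unknown bases were left out. Percentiles are ranks within a list. Genes were GENCODE release 44 protein-coding genes. Motifs were searched on both strands, up to 100 bp either side of the middle of a site's best-ranked peak. The named items were MET, CAV1, the genes of the role lists with a start in the block, and the 5 top-ranked gained, lost, strongest shared, rising and falling sites. The block, members and lists were chosen with earlier results of these data known. Group values were compared by exact permutation tests (SciPy 1.17.1, Python 3.11.15). The methods describe the replicates as biological. The DiffBind test needs reads and was not run. The scripts were tested on simulated data. Alternatives were a threshold of 5 on the value, equal list sizes, each library left out, other overlaps, margins, bin sizes, reference bins and promoter distances, the replicate block, and, added after the data were seen, a pileup of at least 5 times background.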

Additional observations from a re-analysis of the deposited data

How the results depend on the processing

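The ratio of bin medians, 2.98 as the mean of the lists, was 1.81 against other bins of chromosome 7, 2.25 with equal list sizes, 1.57 at a value of 5 or more and 1.55 at a pileup of 5 times background or more, a limit chosen after the data were seen, as in each case below. Leaving out 1 library gave 2.82 to 3.13. The TWEAK difference in the block's share of peaks became 0.00326 at 5 times background, -0.0707 with equal list sizes and -0.0956 at a value of 5 or more, and ran from -0.287 to -0.156 without 1 library. The difference in the share of weak peaks became 2.62 at 5 times background, 4.64 with equal list sizes and -0.0821 at a value of 5 or more. Without 1 library it ran from -3.18 to -0.440. No alternative could bring a group test below 0.05.

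Of the block's sites and of all sites, the shares lost were 2.45% and 2.33% at 5 times background (61 sites), 3.77% and 3.30% with equal list sizes (160) and 4% and 3.36% with a value of at least 5 (107). They were 23.3% and 15.9% without untreated replicate 1 (1201), 19.2% and 11.5% without untreated replicate 2 (936), 12.9% and 9.29% without TWEAK replicate 1 (670) and 8.97% and 6.56% without TWEAK replicate 2 (485). The shares gained in that order of libraries were 4.64% and 6.54% (239), 5.10% and 7.63% (249), 8.08% and 9.09% (418) and 12.2% and 11.6% (661). Fewer lists then had to show a pattern. Of shared sites in the block and of all shared sites, 9.97% and 8.22% fell at 5 times background (106), 6.58% and 4.84% with a margin of 20 points (105), 15.8% and 12.6% with equal list sizes (217) and 15.2% and 12.9% with a value of at least 5 (165), and the block held 384 to 553 falling sites without 1 library (530 without untreated replicate 1, 553 without TWEAK replicate 1). At 5 times background 16.2% and 14.5% rose (172), with the margin of 20 points 3.01% and 2.81% (48), and the block held 125 to 244 rising sites without 1 library (213 without untreated replicate 2, 244 without TWEAK replicate 2). Apart from the constructions named, the causes were not tested. Genes with a promoter peak at any start in all lists ranged from 69 to 81 over all 8 alternatives.

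With the replicate block, the differences of -0.222 and -1.81 had exact permutation p-values of 0.5 and 1. Deviations from the group means over 131751 shared sites had a correlation of -0.00606 between the replicates numbered 1. That showed no pattern shared by replicate number, but it cannot show whether the samples were paired. The lowest pileups listed were 10, 7, 8 and 7 reads, so a site below them could not be seen in that list.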
